A study of Drosophila melanogaster with 12 samples.

Results

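Adult Drosophila melanogaster females reared on the most protein-rich and the most carbohydrate-rich of 4 sequenced diets were compared at the level of polyA RNA. The comparison took every sample labelled with a protein-to-carbohydrate (P:C) ratio of 0.7 and every sample labelled 0.25, which is 6 of the 12 samples of the series, 3 per diet. The other 6 samples came from flies on P:C 0.4 and P:C 0.55 food. All foods were isocaloric and were made by shifting the amounts of sugar and yeast, so of the 4 foods the P:C 0.7 food held the most yeast and the P:C 0.25 food the most sugar. Both groups descended from a single large outbred laboratory population kept on P:C 0.4 food, and carried no named allele or transgene. Eggs were placed on the experimental food, the flies stayed on it in constant light, and each sample pooled 12 whole females frozen on day 13 post egg collection. The day was counted from egg collection and not from eclosion. In the study's own development assay, flies developed faster on P:C 0.7 than on P:C 0.25 food. Adult age and diet therefore cannot be told apart in this pair. The replicates were separate pools of flies.

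In flies, dietary yeast supplies amino acids, sterols and lipids for growth and for egg production, and sugar supplies fuel that is stored as glycogen and triglyceride. Digestive enzymes of the midgut are known to be adjusted to the food. In a whole female the ovary makes up a large part of the RNA beside the flight muscle, the nervous system, the gut and the fat body. In such bulk samples fewer cells of a type and less RNA per cell cannot be told apart, and a larger share of one tissue lowers the relative level of every other.

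Between 6094226 and 13245114 reads were counted per sample, and 9845 of 15448 transcripts were expressed enough to be tested, while 3181 had 0 counts in all 6 samples. Values are CPM, counts relative to the scaled library size, and 3 counts in 1 library correspond to 0.215 to 0.472 CPM. Correlations of log2 CPM were 0.978 to 0.989 within a diet and 0.941 to 0.973 between the diets. The 3 P:C 0.7 samples held 22 to 49 counts in total over 55 transcripts of the male germline and accessory gland, against 19 to 38 counts in the 3 P:C 0.25 samples, and none of these transcripts was expressed enough to be tested. Markers of fat body, ovary, muscle, neurons and gut were present in every sample.

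A transcript was called where the Benjamini-Hochberg adjusted p of edgeR's quasi-likelihood test was under 0.05 and the fitted change was over 1.5-fold. This gave 177 transcripts higher in P:C 0.7 flies, 1.80% of those tested, and 1725 lower, 17.5%, which is 19.3% together. The called higher transcripts had a median log2 fold change (P:C 0.7 over P:C 0.25) of 0.68, and 39 of them exceeded 2-fold and 12 exceeded 4-fold. The called lower transcripts had a median of -0.98, with 823 beyond 2-fold and 71 beyond 4-fold. The median over all transcripts tested was 0.00. Scaling by library size alone moved that median to 0.10 and the higher share of the calls to 24.6%, against 9.31% under the scaling used here. Leaving out the second P:C 0.7 sample cut the calls to 101 higher and 1115 lower, and the number of higher calls also moved to 94 without the first P:C 0.25 sample, 389 without the second, and 337 without the third P:C 0.7 sample.

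In 175 of the 177 called higher transcripts and 1677 of the 1725 called lower ones, the 3 samples of one diet lay wholly on one side of those of the other. Over all tested transcripts the P:C 0.7 samples lay above all P:C 0.25 samples in 26.7% and below all of them in 28.0%. Small changes were frequent in the upward direction. At an adjusted p under 0.05 with no fold minimum, 15.8% of the tested transcripts were higher, 1374 of 1551 by less than 1.5-fold, and 22.8% were lower, 524 of 2249 by less than 1.5-fold. Of 124 transcripts with a mean over 1000 CPM, 0 were called higher and 21 lower. The gene lists below held 29 of the called higher and 377 of the called lower transcripts. Transcripts that overlap another one of the table, in which reads can be shared, made up 49.2% of the higher calls, 38.5% of the lower calls and 45.9% of all tested.

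**Figure D1:**
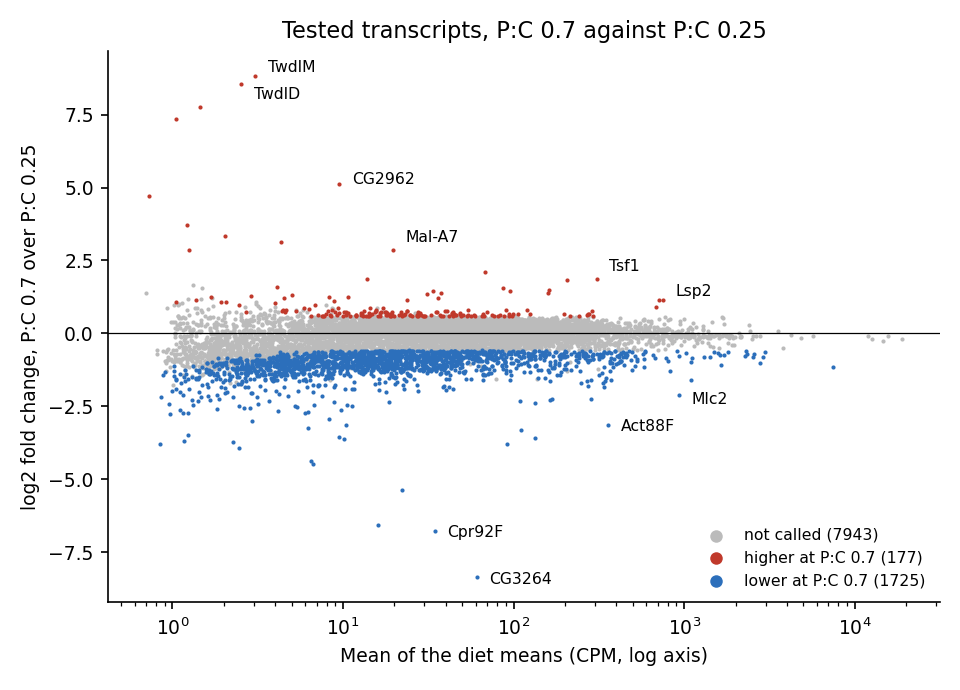
Mean of the diet means (CPM, horizontal log axis) against the log2 fold change of P:C 0.7 over P:C 0.25 flies (vertical axis) for each of the 9845 tested transcripts, with the 177 called higher and the 1725 called lower in colour. The lower calls spread over nearly the whole range of levels, and the labelled transcripts are among those named in the text.

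**Figure D2:**
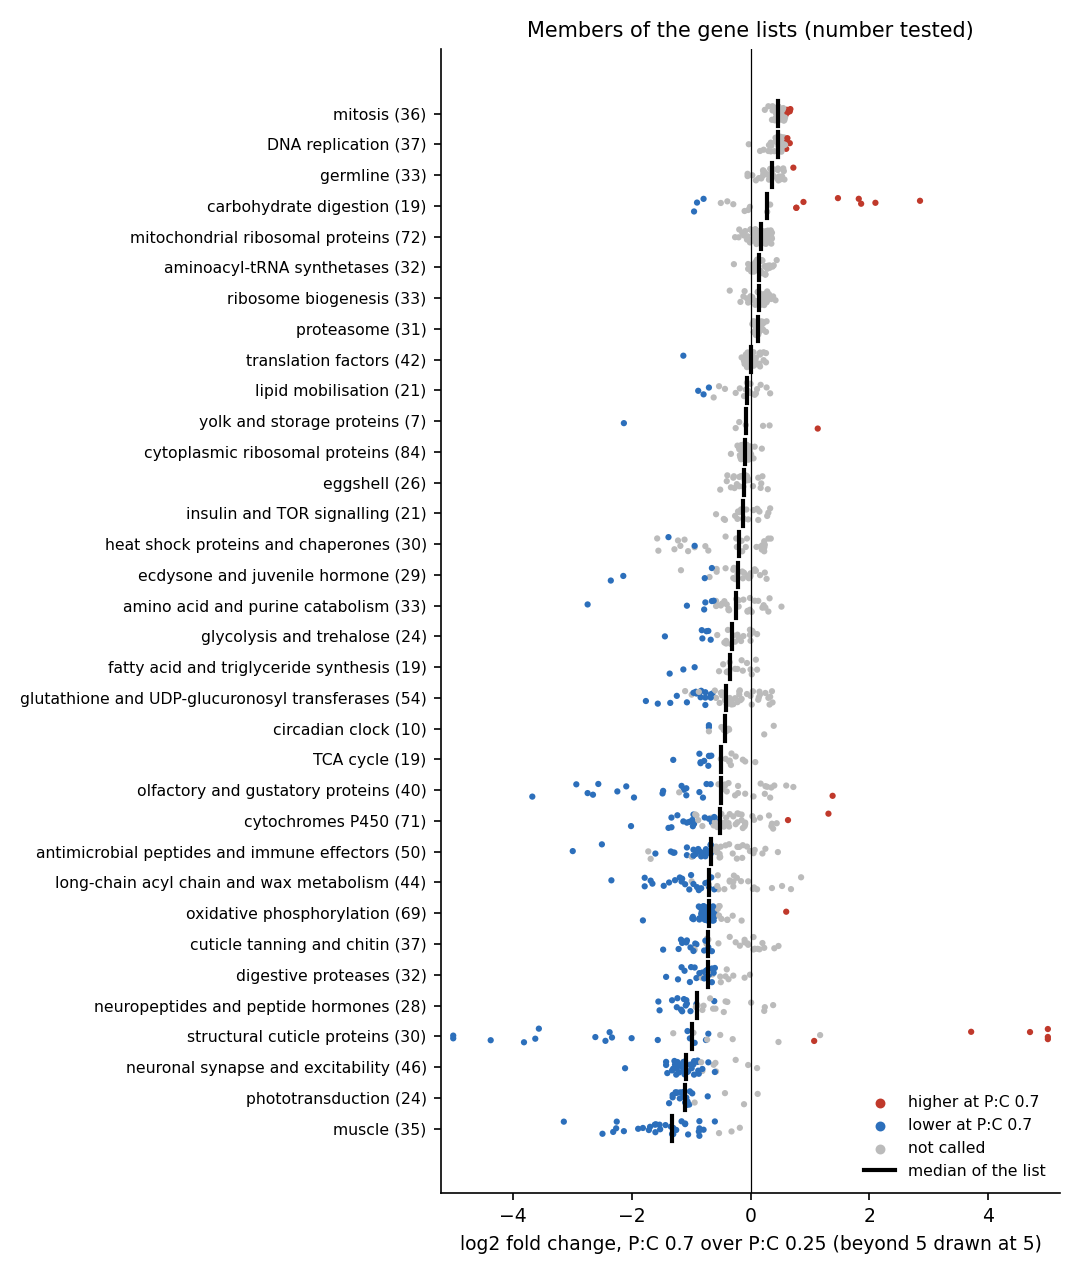
Log2 fold change (P:C 0.7 over P:C 0.25) of every tested member of each function list, one point per transcript, with a black bar at the list's median and values beyond 5 drawn at 5. The medians of the muscle, neuronal and phototransduction lists sit below -1, those of the DNA replication and mitosis lists at 0.47.

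The transcripts of muscle were lower in P:C 0.7 flies as a near-complete set. Of 35 tested members of the muscle list, 32 fell, 0 rose, and the median log2 fold change was -1.32. All 35 had their 3 P:C 0.7 samples below the 3 P:C 0.25 samples, and the 3 members not called had log2 fold changes of -0.53 to -0.18. By role, 7 of 7 thick filament and motor transcripts fell (median -1.61), 12 of 13 of the thin filament and its regulation (-1.59), 9 of 10 of the Z-disc, M-line and scaffold (-1.30), and 4 of 5 of calcium release and energy buffering (-1.10). Summed over the list, the P:C 0.7 samples held 6956, 6892 and 8098 CPM, against 19592, 15404 and 18176 CPM in the P:C 0.25 samples. DESeq2 called 31 of the 35 lower.

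The steepest fall in the list was in Act88F, the actin of the indirect flight muscle (chromosome 3R, 15439969 to 15442177, BDGP6). It had 68.5, 66.9 and 84.1 CPM in P:C 0.7 flies, against 619, 700.2 and 617 CPM in P:C 0.25 flies. The samples of each diet lay close together and the diets were far apart, 8.81-fold lower at P:C 0.7 (log2 fold change -3.14 ± 0.11 SE, edgeR adjusted p = 1.56e-06). Mlc2, the regulatory light chain of myosin, had 331, 339 and 367 CPM at P:C 0.7, against 1581, 1489 and 1455 CPM at P:C 0.25 (log2 fold change -2.13 ± 0.07). TpnC4, the troponin C of flight muscle, measured 35.4, 34.8 and 39.8 CPM at P:C 0.7, against 187, 184 and 175 CPM at P:C 0.25. Act88F, Mlc2 and TpnC4 did not overlap between diets, and each kept its call in all 6 fits that left out 1 sample.

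Structural proteins outside the thin filament behaved in the same direction. Zasp67, a Z-disc protein, had 3.46, 2.79 and 4.01 CPM in P:C 0.7 flies, against 21.6, 17.6 and 18.0 CPM in P:C 0.25 flies. Flightin (fln), which binds the myosin rod of flight muscle, was at 60.2, 53.2 and 61.9 CPM on P:C 0.7 food, against 283, 272 and 283 CPM on P:C 0.25 food. It is covered by an antisense transcript, CR45161, with nearly the same values (57.8, 50.7 and 59.3 CPM at P:C 0.7, against 274, 263 and 274 CPM at P:C 0.25), and reads of the pair cannot be assigned to one of them. Mhc, the muscle myosin heavy chain, had 470.0, 515 and 639 CPM at P:C 0.7, against 1896, 1336 and 1738 CPM at P:C 0.25, a log2 fold change of -1.61 ± 0.15.

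Transcripts of nerve cells were the second large group that was lower on P:C 0.7 food. Of 46 tested members of the list for synapse and excitability, 38 fell and 0 rose (median -1.08): 9 of 10 for synaptic vesicle release, 15 of 17 channels and receptors, 6 of 9 for transmitter synthesis and transport, and 8 of 10 pan-neuronal proteins. Their summed level was 1125, 1000.4 and 1193 CPM in P:C 0.7 samples, against 2134, 1844 and 2079 CPM in P:C 0.25 samples. SerT, the serotonin transporter, had 0.314, 0.358 and 0.572 CPM at P:C 0.7, against 1.95, 2.30 and 1.43 CPM at P:C 0.25. Gad1, which makes GABA, measured 20.3, 20.7 and 27.7 CPM at P:C 0.7, against 64.8, 58.1 and 61.5 CPM at P:C 0.25 (log2 fold change -1.42 ± 0.13, edgeR adjusted p = 0.000315). The acetylcholine receptor subunits nAChRbeta1 and nAChRalpha7 fell by 1.42 and 1.40 on the log2 scale. Of the glia markers, 5 of 8 fell (median -0.75), among them the glutamate transporter Eaat1, with 117, 96.4 and 132 CPM in P:C 0.7 flies, against 211, 162 and 208 CPM in P:C 0.25 flies.

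Transcripts of the eye were lower too. Of 24 phototransduction transcripts 20 fell and 0 rose (median -1.11), including all 6 opsins and 14 of 18 light-signalling components. The main opsin of the outer photoreceptors, ninaE, had 809, 603 and 789 CPM in P:C 0.7 flies, against 1264, 1544 and 1528 CPM in P:C 0.25 flies. The calcium channel trp was at 88.0, 71.1 and 87.4 CPM at P:C 0.7, against 179, 201 and 209.9 CPM at P:C 0.25 (log2 fold change -1.26 ± 0.10), and the myosin kinase ninaC fell by 1.31 on the log2 scale. Among the opsins Rh3 and Rh4 of the ultraviolet-sensitive cells fell by 1.13 and 1.12, the ocellar Rh2 by 1.03, and Rh5 by 0.72. Rh5 lost its call without the third P:C 0.25 sample (-0.63), without the first P:C 0.7 sample (-0.71) and by DESeq2 (-0.57).

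Smell and taste transcripts were mostly too low to test, 40 of 224. Of these 18 fell and 1 rose, with a median of -0.50. Among 29 odorant-binding proteins 15 fell and 1 rose (median -0.74), and of 11 receptors 3 fell (Orco, Ir85a and the pheromone-sensing Snmp1), with a median of 0.25 over the 11. Without the first P:C 0.25 sample 2 members of the whole list rose. Obp83a, an odorant-binding protein of the antenna, had 2.83, 0.859 and 2.48 CPM at P:C 0.7, against 12.6, 16.0 and 15.1 CPM at P:C 0.25. lush, which takes part in sensing a male pheromone, measured 0.314, 0.286 and 0.286 CPM at P:C 0.7, against 1.80, 2.04 and 2.20 CPM at P:C 0.25. Orco, the co-receptor of odorant receptors, had 0.943, 0.215 and 0.954 CPM on P:C 0.7 food, against 1.80, 4.47 and 2.86 CPM on P:C 0.25 food, and lost its call without the third P:C 0.25 sample (-2.26) or the second P:C 0.7 sample (-1.67). The member that rose was Obp99a, at 217, 194 and 275 CPM in P:C 0.7 flies, against 92.5, 60.7 and 109 CPM in P:C 0.25 flies (log2 fold change 1.38 ± 0.21, edgeR adjusted p = 0.00214).

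Of 28 neuropeptide and peptide hormone transcripts 14 fell and 0 rose (median -0.90). The number that fell was 7 without the third P:C 0.25 sample, 9 without the first P:C 0.7 sample and 8 without the second, and 1 rose without the second P:C 0.25 sample. Akh, the adipokinetic hormone that mobilises stored sugar and fat, had 1.41, 1.22 and 1.72 CPM in P:C 0.7 flies, against 4.49, 3.70 and 4.49 CPM in P:C 0.25 flies (log2 fold change -1.55 ± 0.27, edgeR adjusted p = 0.00424). Tachykinin (Tk), a peptide of gut and brain, was at 5.34, 4.79 and 7.35 CPM at P:C 0.7, against 16.9, 13.0 and 11.5 CPM at P:C 0.25. Nplp3 and the peptide proctolin (Proc) fell by 1.53 and 1.32. All 4 had no overlap between the diets.

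Cuticle proteins changed strongly in both directions. Only 30 of 120 structural cuticle proteins could be tested, and of these 17 fell and 6 rose (median -0.99). Cpr92F had 0.472, 0.859 and 0.382 CPM in P:C 0.7 flies, against 117, 36.4 and 52.4 CPM in P:C 0.25 flies, a log2 fold change of -6.77 ± 0.61. The adult cuticle protein Acp65Aa had 0.314, 0.429 and 0.191 CPM at P:C 0.7, against 53.6, 18.4 and 23.9 CPM at P:C 0.25. Both were near the level of 3 counts in P:C 0.7 flies and well above it in P:C 0.25 flies, where the first sample was the highest. Cpr47Ea, which overlaps another transcript, Acp1 and Cpr100A fell by 4.37, 3.62 and 3.56 on the log2 scale. CG7214, to which no role is given here, had 8.49, 11.1 and 16.7 CPM in P:C 0.7 flies, against 226, 122 and 166 CPM in P:C 0.25 flies.

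The cuticle proteins that rose were at or near 0 in P:C 0.25 flies. TwdlM, of the Tweedle family of cuticle proteins, had 7.55, 8.16 and 2.67 CPM at P:C 0.7, against 0, 0 and 0 CPM at P:C 0.25, which is at least 16.4-fold higher when the P:C 0.25 level is set to 3 counts per library (0.373 CPM). TwdlD had 5.19, 3.86 and 6.11 CPM in P:C 0.7 flies and 0 counts in P:C 0.25 flies, at least 13.6-fold higher, and Cpr65Ea, with 1.41, 2.50 and 2.38 CPM at P:C 0.7 and 0 counts at P:C 0.25, was at least 5.64-fold higher. TwdlW summed to 42 counts in P:C 0.7 flies and 1 count in P:C 0.25 flies, a ratio of 36.6 with a 95% counting interval of 6.22 to 1479. TwdlY, which overlaps another transcript, had 2.52, 2.58 and 1.72 CPM at P:C 0.7, against 0.150, 0.255 and 0.0954 CPM at P:C 0.25. The sixth, Ccp84Ag (log2 fold change 1.07), lost its call in every fit that left out 1 sample, at 0.83 to 1.38, by DESeq2 (0.44), and with no low-count filter or with the replicate block (1.09 each). Cpr65Ea lost its call in the fit of all 12 samples. With a minimum of 10 counts in every sample none of the 6 could be tested, and the number of lower calls was 10, while with no low-count filter 12 members rose.

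The Tweedle transcripts were also present in 1 sample of another diet. In the P:C 0.4 flies the third sample held TwdlM at 18.0 CPM, TwdlD at 11.2 CPM and Cpr65Ea at 6.76 CPM, while all P:C 0.55 samples were at 0 for these 3. Their presence in this 1 P:C 0.4 library was not tested further. Enzymes of tanning and chitin were lower or not called: 15 of 37 fell and 0 rose (median -0.71), 7 of 13 of tanning and 8 of 24 of chitin synthesis and turnover. Ddc, dopa decarboxylase, which overlaps another transcript, had 14.6, 13.2 and 17.2 CPM in P:C 0.7 flies, against 31.9, 33.6 and 35.8 CPM in P:C 0.25 flies.

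**Figure D3:**
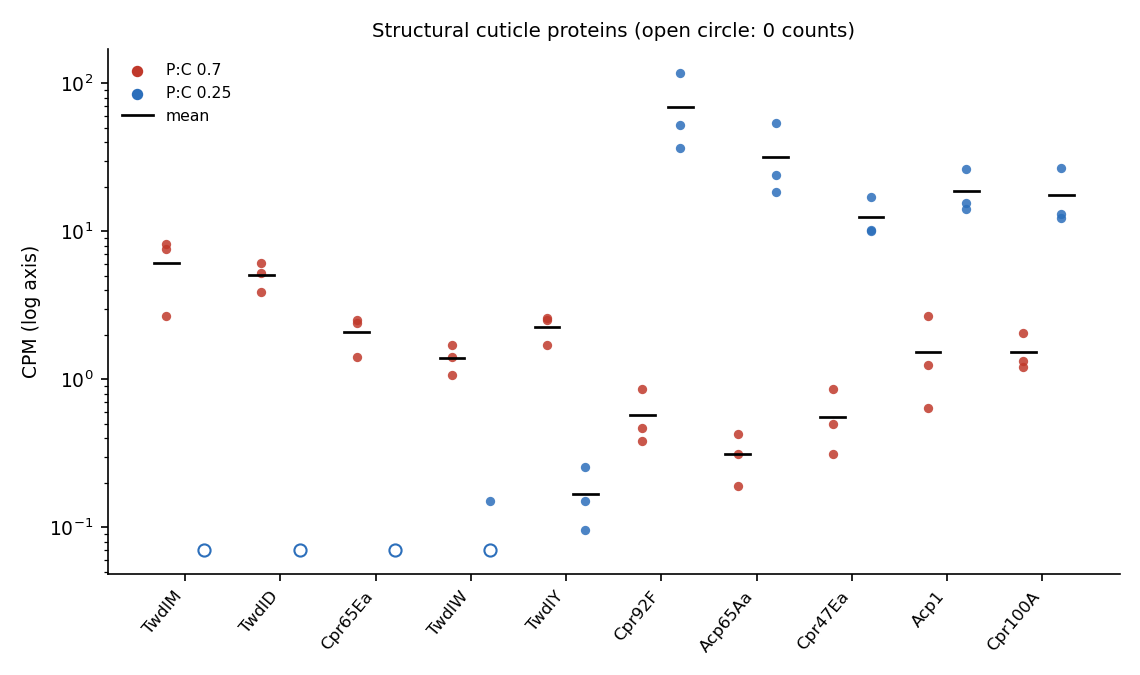
CPM on a log axis of cuticle proteins in each of the 3 P:C 0.7 (left) and 3 P:C 0.25 (right) samples, with a bar at the mean and open circles for samples with 0 counts. Cpr92F and Acp65Aa are under 1 CPM in all P:C 0.7 samples, and TwdlM, TwdlD and Cpr65Ea are open circles in all P:C 0.25 samples.

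The largest fall among called transcripts with a mean of at least 5 CPM was in an alkaline phosphatase, an enzyme class that removes phosphate groups at the cell surface. CG3264 (Alp8) had 0, 5 and 6 counts in the P:C 0.7 samples, against 757, 936 and 1376 counts in the P:C 0.25 samples. That is 0, 0.358 and 0.572 CPM at P:C 0.7, against 113, 119 and 131 CPM at P:C 0.25, a log2 fold change of -8.36 ± 0.25 (edgeR adjusted p = 1.56e-06). Within each diet the samples were alike, and the diets did not overlap. CG8147 (phu) had 1.41, 0.859 and 0.954 CPM in P:C 0.7 flies, against 71.7, 25.1 and 33.0 CPM in P:C 0.25 flies, and CG3290 (Alp2) had 23.4, 17.2 and 21.9 CPM in P:C 0.7 flies, against 354, 199 and 189 CPM in P:C 0.25 flies. phu and Alp2 fell by 5.38 and 3.58 on the log2 scale and kept their calls without any 1 of the 6 samples.

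Transcripts of the mitochondrial respiratory chain were lower in P:C 0.7 flies in most members. Of 69 tested members of the oxidative phosphorylation list, 57 fell and 1 rose, with a median of -0.70. For complex I 22 of 31 fell (median -0.64, from -0.97 to -0.15), for complexes II to IV with cytochrome c 23 of 25 fell (-0.77, from -1.81 to 0.60), and for ATP synthase 12 of 13 fell (-0.73, from -0.81 to -0.53). Cyt-c-p, cytochrome c, had 376, 331 and 370.3 CPM in P:C 0.7 flies, against 728, 690.0 and 678 CPM in P:C 0.25 flies (log2 fold change -0.96 ± 0.07). CG34172 (COX7AL2), a subunit of complex IV by its name, had 19.5, 15.4 and 17.6 CPM at P:C 0.7, against 58.6, 60.6 and 62.8 CPM at P:C 0.25. The exception was CG14077 (COX6AL2), at 10.7, 8.23 and 8.78 CPM in P:C 0.7 flies and 4.79, 6.51 and 6.59 CPM in P:C 0.25 flies (log2 fold change 0.60), and its call was lost by DESeq2 (0.46) and in 5 of the 6 fits with 1 sample left out, all but the one without the second P:C 0.25 sample (0.48 to 0.69). The table held 0 transcripts of the mitochondrial genome. Ant2, an ADP/ATP carrier of the inner membrane that overlaps another transcript, had 2159.6, 1942 and 2217 CPM at P:C 0.7, against 3972, 3425 and 3781 CPM at P:C 0.25.

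The citric acid cycle fell in part, 9 of 19 transcripts with 0 higher (median -0.50). Citrate synthase (kdn), its first enzyme, had 470.2, 425 and 529.9 CPM in P:C 0.7 flies, against 1259, 1064 and 1182 CPM in P:C 0.25 flies (log2 fold change -1.30 ± 0.10, edgeR adjusted p = 0.000207). The isocitrate dehydrogenase subunit l(1)G0156 (Idh3a) fell by 0.86, and Acon and Nc73EF (Ogdh), both overlapping other transcripts, by 0.84 each. Of 24 transcripts of glycolysis and trehalose metabolism 6 fell and 0 rose (median -0.31). Gpo-1, the mitochondrial glycerol-3-phosphate oxidase, had 162, 158 and 191 CPM at P:C 0.7, against 519.7, 368 and 496 CPM at P:C 0.25, and Gapdh1 fell by 0.82. Tret1-1, a carrier of the blood sugar trehalose, had 225, 183 and 246 CPM in P:C 0.7 flies, against 404, 308 and 375 CPM in P:C 0.25 flies, and overlaps another transcript.

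Enzymes that digest starch and sugars included several strong rises on the P:C 0.7 food, which was the poorer of the pair in sugar. Of 19 tested transcripts of the carbohydrate digestion list, which also held lysosomal alpha-mannosidases, 8 rose, 3 fell and 8 were not called (median 0.28). The 3 that fell were alpha-mannosidases, as was CG9463 among those that rose. Summed over the list, the P:C 0.7 samples held 3234, 2225 and 2974 CPM, against 2226, 2104 and 1950 CPM in the P:C 0.25 samples, so the diets overlapped. Mal-A6, a maltase, which splits maltose and sucrose, had 135, 81.1 and 115 CPM in P:C 0.7 flies, against 24.4, 36.1 and 17.0 CPM in P:C 0.25 flies, 4.29-fold higher (log2 fold change 2.10 ± 0.27, edgeR adjusted p = 0.00113). Mal-A7 had 54.1, 18.96 and 31.3 CPM at P:C 0.7, against 1.65, 9.83 and 2.67 CPM at P:C 0.25, 7.23-fold higher. In both the first sample was the highest of P:C 0.7 and the second the highest of P:C 0.25, and the diets stayed apart. Mal-A8 and Mal-A1 rose by 1.86 and 1.47 on the log2 scale but lost their calls without the third P:C 0.25 sample (1.55 and 1.25) or the first P:C 0.7 sample (1.70 and 1.24), and both overlap another transcript. Without either of these samples 5 members were called higher. The 4 maltases lie close together on chromosome 2R (BDGP6): Mal-A1 at 8449664 to 8451904, Mal-A6 at 8465158 to 8467595, Mal-A7 at 8468646 to 8471663 and Mal-A8 at 8471954 to 8473961.

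tobi, an alpha-glucosidase relative named as a target of brain insulin, had 338, 247 and 384 CPM in P:C 0.7 flies, against 86.6, 85.8 and 101 CPM in P:C 0.25 flies (log2 fold change 1.82 ± 0.16, edgeR adjusted p = 0.000285), and overlaps another transcript. The amylases, which cut starch, rose less. Amy-p had 1081, 671 and 914 CPM at P:C 0.7, against 525, 502 and 409 CPM at P:C 0.25, and Amy-d had 421, 286 and 383 CPM at P:C 0.7, against 232, 214 and 194 CPM at P:C 0.25 (log2 fold changes 0.89 and 0.77). These paralogs are near-identical, so their reads may have been split between them. Members of the alpha-mannosidase family of lysosomal enzymes went both ways: LManI, LManII and LManV fell by 0.95, 0.90 and 0.79, while CG9463 (LManIII) rose by 0.77 and kept its call in only 1 of 6 fits with 1 sample left out (0.53 to 0.89).

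Protein-digesting enzymes of the gut were lower on the food that was richer in protein. Of 32 digestive proteases 19 fell and 0 rose (median -0.71), and their summed level was 13975, 15758 and 17107 CPM in P:C 0.7 samples, against 28954, 22745 and 23220 CPM in P:C 0.25 samples. thetaTry, a trypsin-like protease, had 72.9, 107 and 113 CPM at P:C 0.7, against 356, 213 and 221 CPM at P:C 0.25 (log2 fold change -1.42 ± 0.22, edgeR adjusted p = 0.00271). Jon65Ai, of the Jonah family of serine proteases, had 159, 241 and 229.7 CPM in P:C 0.7 flies, against 534, 410.0 and 464 CPM in P:C 0.25 flies. Both were lower in every P:C 0.7 sample, with the first P:C 0.7 sample the lowest and the first P:C 0.25 sample the highest. The high-level Jon99Ciii and Jon99Cii fell by 0.70 and 0.65, and Jon99Cii lost its call without the first P:C 0.25 sample (-0.53) or the first P:C 0.7 sample (-0.58) and under library size alone (-0.55). Reads of such closely related proteases may be shared. Of the enterocyte markers, which include amylase, maltase and protease genes of these lists, 10 of 15 fell and 2 rose (median -0.70). The 2 that rose were Amy-p and Mal-A1, and 1 did without the third P:C 0.25 sample or the first P:C 0.7 sample.

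**Figure D4:**
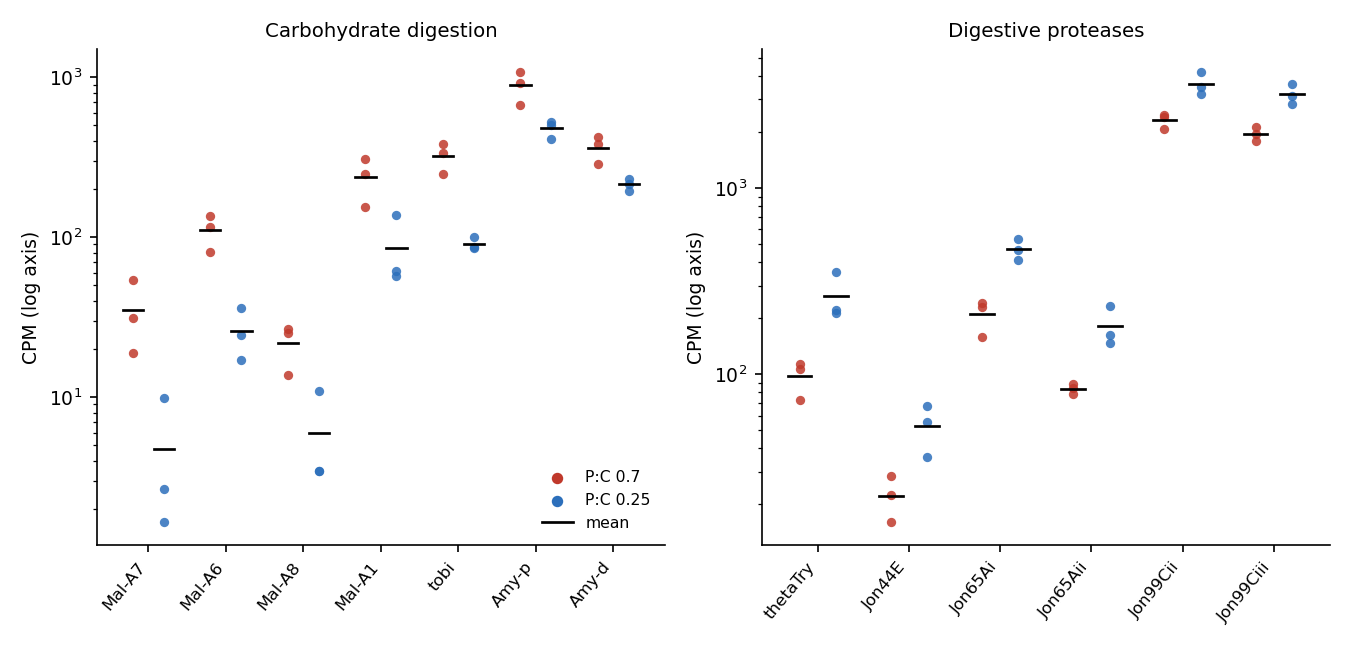
CPM on a log axis of maltases, tobi and amylases and of digestive proteases in the 3 P:C 0.7 samples (left of each pair) and the 3 P:C 0.25 samples (right), with a bar at the mean. The carbohydrate enzymes drawn are members of their list that were called higher in P:C 0.7 flies, as in Mal-A6 at 81.1 to 135 against 17.0 to 36.1 CPM. The proteases drawn are lower, as in thetaTry at 72.9 to 113 against 213 to 356 CPM.

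Outside digestion, strong rises were found in transcripts of mixed function. Tsf1, transferrin, the iron carrier of the hemolymph, had 505, 328 and 609 CPM in P:C 0.7 flies, against 103, 137 and 159 CPM in P:C 0.25 flies (log2 fold change 1.85 ± 0.23, edgeR adjusted p = 0.000974). Sodh-1, a sorbitol dehydrogenase, had 133, 115 and 140.2 CPM at P:C 0.7, against 38.0, 48.4 and 45.1 CPM at P:C 0.25, 2.94-fold higher. Both diets formed tight and separate groups in Sodh-1. CG2962, with no role given here, showed the largest rise among transcripts over 5 CPM, with 20.3, 16.5 and 18.9 CPM at P:C 0.7, against 0.150, 0.510 and 0.764 CPM at P:C 0.25, and it overlaps another transcript. CG42807, also without a role given here, rose by 1.44 on the log2 scale. CG32444, which is annotated with the synonym of an aldose 1-epimerase and overlaps another transcript, had 159, 103 and 159.5 CPM in P:C 0.7 flies, against 56.9, 41.0 and 55.3 CPM in P:C 0.25 flies.

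Storage and yolk proteins showed no common direction. Of 7 tested, 1 rose and 1 fell (median -0.08). Lsp2, a hexamerin that stores amino acids, had 1251, 809 and 1060.2 CPM in P:C 0.7 flies, against 263, 351 and 805 CPM in P:C 0.25 flies. The third P:C 0.25 sample nearly reached the second P:C 0.7 sample, and the log2 fold change of 1.13 ± 0.37 (edgeR adjusted p = 0.0404) was called in only 1 of the 6 fits with 1 sample left out (0.85 to 1.29) and was not called by DESeq2 (0.53). An antisense transcript, CR11538, covers Lsp2 with similar values. The related Lsp1gamma was at 2.04, 2.58 and 3.53 CPM at P:C 0.7, against 16.2, 14.0 and 6.78 CPM at P:C 0.25, and fell by 2.13. The yolk proteins Yp1, Yp2 and Yp3, which the fat body and follicle cells make for the egg, had log2 fold changes of -0.19, -0.25 and -0.08 and none was called. Yp1, which overlaps another transcript, measured 17691, 15184 and 20183 CPM at P:C 0.7, against 22289, 17021 and 21174 CPM at P:C 0.25. The list's median (0.02) and that of Yp3 (0.02) changed sign under library size alone.

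Genes of long-chain acyl chains and wax were lower in part. Of 44 transcripts of this list 23 fell and 0 rose (median -0.70): 6 of 12 fatty acyl-CoA reductases, 9 of 15 elongases and 8 of 17 acyl-CoA synthetases. CG4830, of the synthetases, had 4.40, 7.59 and 5.91 CPM in P:C 0.7 flies, against 36.1, 29.0 and 29.1 CPM in P:C 0.25 flies, and CG17562, of the reductases, fell by 1.68 on the log2 scale. Of 19 transcripts of common fatty acid and triglyceride synthesis 3 fell and 0 rose (median -0.35), 15.8%, near the 17.5% of all tested transcripts that were called lower. The 3 were Fad2, which makes pheromone dienes in female oenocytes, and the fatty acid synthases v(2)k05816 (FASN2) and CG17374 (FASN3), which fell by 1.13, 1.36 and 0.94. The fatty acid synthase of the fat body, CG3523 (FASN1), was not called, with 1195, 1083 and 1369 CPM in P:C 0.7 flies and 1978, 907 and 1753 CPM in P:C 0.25 flies, and was called lower without the second P:C 0.25 sample (-0.60). FASN2 had 169.6, 165 and 223 CPM at P:C 0.7, against 548, 395 and 488 CPM at P:C 0.25. Of the synthesis list 5 members fell without the second P:C 0.25 sample, and 1 wax transcript rose without the third P:C 0.7 sample, under library size alone and with the replicate block.

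Of 7 oenocyte markers, which share fatty acid synthase and elongase genes with these lists, 5 fell (median -0.79), among them the elongase eloF, with 68.5, 62.1 and 85.7 CPM in P:C 0.7 flies and 149, 113 and 142 CPM in P:C 0.25 flies. Of 21 transcripts of lipid mobilisation and transport 3 fell and 0 rose, 14.3% beside the 17.5% of all tested, with a median of -0.06 that was 0.04 under library size alone. Apoltp, which loads lipid onto lipoprotein particles, had 192, 175 and 250.0 CPM at P:C 0.7, against 415, 328 and 391 CPM at P:C 0.25. Lsd-1, a protein of lipid droplets that overlaps another transcript, fell by 0.79. oys, a lysophospholipid acyltransferase, was at 1832, 1581 and 2145 CPM at P:C 0.7, against 3550.3, 3709.5 and 3898 CPM at P:C 0.25, but it overlaps a transcript of complex IV. Fat body markers gave 4 lower and 1 higher of 10 (median -0.30), the higher one being Lsp2, which was called in 1 of the 6 fits with a sample left out.

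Immune transcripts were lower or not called. Of 50 tested, 23 fell and 0 rose (median -0.67), 14 of 25 antimicrobial peptides and 9 of 25 recognition proteins, lysozymes and Turandots. The number was 15 without the third P:C 0.25 sample, 15 without the second P:C 0.7 sample and 15 in a fit of all 12 samples, and 1 rose without the second P:C 0.7 sample. IM3 (BomS3), a Bomanin peptide, had 47.3, 42.2 and 53.0 CPM in P:C 0.7 flies, against 135, 133 and 163 CPM in P:C 0.25 flies (log2 fold change -1.60 ± 0.11, edgeR adjusted p = 0.000201). PGRP-SC1a, a peptidoglycan amidase of the gut, was at 0.314, 1.07 and 0.572 CPM at P:C 0.7, against 6.14, 3.83 and 2.77 CPM at P:C 0.25. The attacin AttC had 0.314, 0.644 and 0.954 CPM at P:C 0.7, against 1.65, 2.17 and 11.7 CPM at P:C 0.25, where 1 sample stood far above the others, and it lost its call without that sample, the third of P:C 0.25, (-1.49), without the first P:C 0.7 sample (-2.77), without the second (-2.94) and in the fit of all 12 samples (-2.98). It overlaps another transcript. Of 13 hemocyte markers 0 were called by edgeR or DESeq2, 2 had an unadjusted p under 0.05, and the median was -0.19. A single marker rose without the second P:C 0.7 sample and a single marker fell without the third.

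Detoxification enzymes showed many modest falls. Of 71 cytochromes P450 24 fell and 2 rose (median -0.52), and of 54 glutathione and UDP-glucuronosyl transferases 17 fell and 0 rose (-0.42). In either direction 36.6% of the P450s and 31.5% of the transferases were called, beside 19.3% of all tested. Cyp6a8 had 8.65, 6.87 and 6.01 CPM in P:C 0.7 flies, against 40.3, 21.3 and 24.2 CPM in P:C 0.25 flies. Cyp309a2 rose, with 7.39, 5.80 and 8.30 CPM at P:C 0.7, against 4.04, 2.42 and 2.29 CPM at P:C 0.25, as did Cyp6a19 (log2 fold change 0.63), which overlaps another transcript and lost its call without the first P:C 0.25 sample or the second P:C 0.7 sample (0.56 each). The lower P450 count was 14 without the first P:C 0.25 sample, 15 without the third, 13 without the second P:C 0.7 sample and 14 under library size alone or DESeq2. The lower transferase count was 8 and 10 without the first and the third P:C 0.25 sample, 9 and 5 without the first and the second P:C 0.7 sample, and 10 by DESeq2. Over all transcripts the lower calls went from 1725 to 1115 without the second P:C 0.7 sample and to 1409 by DESeq2. How far each of these lists exceeded all transcripts thus depended on the setting. GstD5, with 4.24, 2.08 and 4.58 CPM at P:C 0.7 and 16.9, 3.06 and 15.8 CPM at P:C 0.25, overlapped between the diets. It lost its call in 5 of the 6 fits with 1 sample left out (-2.03 to -1.43), all but that without the second P:C 0.25 sample.

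In amino acid and purine metabolism 6 of 33 transcripts fell and 0 rose (median -0.24), 18.2%, near the 17.5% of all tested. Without the second P:C 0.7 sample 3 fell, and under library size alone 1 rose. Gnmt, which transfers methyl groups to glycine and overlaps another transcript, had 2.36, 0.930 and 1.62 CPM in P:C 0.7 flies, against 14.4, 6.25 and 10.2 CPM in P:C 0.25 flies. CG1461 (Tat), a tyrosine aminotransferase that overlaps another transcript, fell by 1.07. ade5 (Paics), an enzyme of purine synthesis, was at 246, 202 and 271 CPM at P:C 0.7, against 406, 437 and 375 CPM at P:C 0.25.

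Transcripts of DNA replication, mitosis and the germline were higher in many members and by small folds. At an adjusted p under 0.05 alone, 31 of 37 DNA replication transcripts were higher in P:C 0.7 flies, as were 34 of 36 mitosis transcripts and 23 of 33 germline transcripts, beside 15.8% of all tested. Their medians were 0.47, 0.47 and 0.36, below the 1.5-fold minimum, so that 4, 5 and 1 members were called and 0 fell. RnrS, the small subunit of ribonucleotide reductase that makes DNA precursors, had 338, 375 and 296 CPM in P:C 0.7 flies, against 176, 243 and 218 CPM in P:C 0.25 flies (log2 fold change 0.66 ± 0.13, edgeR adjusted p = 0.00678). tum, a regulator of cytokinesis, had 154, 174 and 134 CPM at P:C 0.7, against 75.9, 114 and 99.6 CPM at P:C 0.25. bam, which starts the differentiation of germline cysts and overlaps another transcript, had 53.1, 47.0 and 32.7 CPM at P:C 0.7, against 24.3, 28.3 and 27.3 CPM at P:C 0.25. All 3 were higher in every P:C 0.7 sample.

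How many of these passed the fold minimum depended on single samples. The DNA replication count was 1 without the first P:C 0.25 sample, 15 without the second, 0 without the second P:C 0.7 sample and 13 without the third, and 17 under library size alone. The mitosis count was 0, 15, 0 and 16 in these 4 fits, 3 without the first P:C 0.7 sample and 16 under library size alone. The germline count was 8 and 2 without the second and the third P:C 0.25 sample, 0 and 5 without the second and the third P:C 0.7 sample, and 6 under library size alone. RnrS lost its call without the first P:C 0.25 sample (0.55) or the second P:C 0.7 sample (0.57), tum in the same fits (0.53 and 0.57), and bam without the second P:C 0.7 sample (0.67). DESeq2 called 2 DNA replication, 2 mitosis and 1 germline transcript higher.

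Several maternal transcripts stored in the egg were higher by less than 1.5-fold. osk, which organises the germ plasm and overlaps another transcript, had 976, 993 and 911 CPM in P:C 0.7 flies, against 594, 769 and 695 CPM in P:C 0.25 flies (log2 fold change 0.48, edgeR adjusted p = 0.00776). yl, the yolk receptor of the oocyte, was at 1855, 1946 and 1910.4 CPM at P:C 0.7, against 1439, 1595 and 1534 CPM at P:C 0.25, and nos, a translational repressor of the germ plasm that overlaps another transcript, had a log2 fold change of 0.46. None of osk, yl and nos passed the fold minimum, although the diets did not overlap in any of them, and osk did pass it without the second P:C 0.25 sample (0.59). alphaTub67C, a maternal tubulin, had 502, 534 and 453 CPM at P:C 0.7, against 314, 378 and 351 CPM at P:C 0.25 (log2 fold change 0.51), and passed the minimum under library size alone (0.62) and without the second P:C 0.25 sample (0.59). Of 26 eggshell transcripts 0 were called by edgeR or DESeq2, with 4 at an unadjusted p under 0.05 and a median of -0.11, and 1 rose without the first P:C 0.25 sample. The vitelline membrane members had a median of -0.09, which was 0.02 under library size alone. Of 9 markers of the sperm storage organs 5 fell (median -0.72), and 3 without the second P:C 0.7 sample, by DESeq2, or with at least 10 counts in every sample. Send2, a spermathecal endopeptidase, had 0.786, 0.143 and 0.954 CPM in P:C 0.7 flies, against 1.498, 25.8 and 10.7 CPM in P:C 0.25 flies, with a wide spread among the last 3, and it lost its call without the second P:C 0.7 sample (-3.82) and by DESeq2 (-0.27).

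The machinery of protein synthesis and breakdown showed small folds and few calls. By edgeR and by DESeq2, 0 of 84 cytoplasmic ribosomal proteins were called (median -0.09, and 0.01 under library size alone), with 6 at an unadjusted p under 0.05, beside 51.2% of all tested transcripts. The same held for 0 of 72 mitochondrial ribosomal proteins (median 0.18, 19 at an unadjusted p under 0.05), 0 of 33 ribosome biogenesis factors (0.15, 13), 0 of 32 aminoacyl-tRNA synthetases (0.15, 12) and 0 of 31 proteasome subunits (0.13, 11). At an adjusted p under 0.05 alone, the lists of this last sentence held, in order, 7, 8, 9 and 4 higher members and 1, 1, 1 and 0 lower ones. Over all tested transcripts, 15.8% were higher at that threshold. Under library size alone the higher counts were 19, 18, 13 and 19. RpL3, which overlaps another transcript, had 2610.1, 2326 and 2763 CPM in P:C 0.7 flies and 2783, 2741 and 2670.3 CPM in P:C 0.25 flies. Of 42 translation factors 1 fell, Ef1alpha100E (eEF1alpha2), with 50.6, 38.3 and 52.6 CPM at P:C 0.7, against 102, 97.5 and 108 CPM at P:C 0.25, and the list's median was 0.01.

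None of 21 transcripts of insulin and TOR signalling, the nutrient-sensing pathway, was called by edgeR or DESeq2. Their median was -0.12, and 9 had an unadjusted p under 0.05. Pdk1, a kinase of the pathway that overlaps another transcript, had 254.8, 293 and 264 CPM in P:C 0.7 flies and 291, 301 and 292 CPM in P:C 0.25 flies. A single member was called lower without the second P:C 0.25 sample, without the third P:C 0.7 sample, or with a minimum of 10 counts in every sample. Of 29 transcripts of ecdysone and juvenile hormone signalling 4 fell (median -0.21), 13.8% beside the 17.5% of all tested, and 2 without the first P:C 0.7 sample. Among them Jhedup, of the juvenile hormone esterase family, had 2.52, 1.22 and 1.81 CPM at P:C 0.7, against 4.34, 9.44 and 9.26 CPM at P:C 0.25. Of 30 heat shock proteins and chaperones 2 fell (median -0.19), Hsc70-1 and l(2)efl, which is 6.67%, under the share of all tested, and 12 fell without the second P:C 0.25 sample. At an adjusted p under 0.05 alone, 7 of these 30 were higher and 2 lower. Of 10 clock transcripts 2 fell (median -0.43), a share near the 17.5% of all tested. The clock count was 4 without the second P:C 0.25 sample and 5 without the third P:C 0.7 sample. Among these 10, 2 were higher and 4 lower at an adjusted p under 0.05 alone. Of 13 Malpighian tubule markers 8 fell (median -0.67), among them the transporter Oatp58Dc, by 1.33, and the count was 4 without the first P:C 0.25, the first P:C 0.7 or the second P:C 0.7 sample, 4 by DESeq2 and 5 under library size alone.

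The middle diets placed most of these groups between the extremes, in mean CPM of a scaling over all 12 samples. The summed muscle list was at 17386 ± 2193 CPM at P:C 0.25, 10397 ± 1223 CPM at P:C 0.4, 10297 ± 1524 CPM at P:C 0.55 and 7274 ± 659 CPM at P:C 0.7 (SD, n = 3 each). P:C 0.4 and 0.55 lay within 1 SD of each other, while the lowest P:C 0.25 sample (15008 CPM) was above the highest P:C 0.55 sample (12054 CPM), and the highest P:C 0.7 sample (8035 CPM) was below the lowest P:C 0.4 sample (9061 CPM). Act88F followed with means of 633, 199, 126 and 72.8 CPM from P:C 0.25 to 0.7, and Alp8 with 119, 12.6, 11.5 and 0.308 CPM. Other transcripts set P:C 0.25 apart from the rest. lush had means of 1.97, 0.268, 0.104 and 0.294 CPM in the same order, Obp83a 14.2, 2.13, 1.70 and 2.04 CPM, and phu 42.5, 1.63, 1.51 and 1.07 CPM. Digestive proteases and neuropeptides instead set P:C 0.7 apart. In the same order the proteases summed to 24497, 22988, 23204 and 15527 CPM, and the neuropeptides to 3267, 3169, 3226 and 2380 CPM. The eggshell list (16671, 20462, 19560.5 and 15521 CPM, SD 2746 to 3971) lay outside the extremes at both middle diets. So did the yolk and storage list (53209, 57454, 64065.5 and 49004 CPM). The differences between neighbouring diets were not tested.

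The carbohydrate digestion list summed to 2053 ± 143 CPM at P:C 0.25, 1981 ± 178 CPM at P:C 0.4, 3032 ± 115 CPM at P:C 0.55 and 2795 ± 517 CPM at P:C 0.7 (SD, n = 3 each). The P:C 0.4 mean lay within 1 SD of P:C 0.25, and the P:C 0.55 mean within 1 SD of P:C 0.7. Mal-A6 had means of 25.3, 45.4, 72.2 and 109.8 CPM from P:C 0.25 to 0.7, higher at each step, while Sodh-1 had 42.9, 81.6, 139.9 and 129 CPM, and Tsf1 130.5, 176, 547 and 478 CPM, with P:C 0.55 at or above P:C 0.7. The protease thetaTry had 258, 239, 179 and 97.3 CPM in that order. CG2962 had 0.465, 6.97, 0.231 and 18.5 CPM and did not follow the order of the diets.

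**Figure D5:**
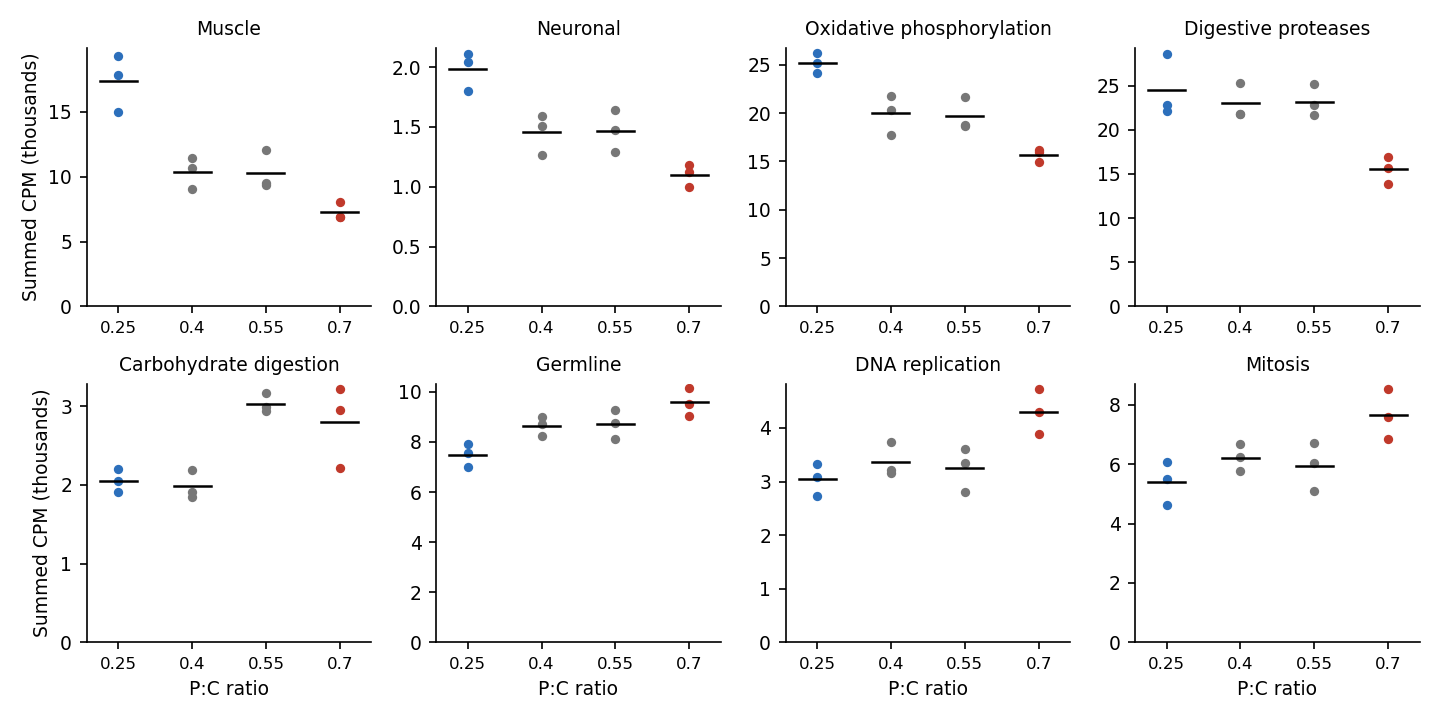
Summed CPM of 8 gene lists (vertical axis, in units of 1000 CPM) in each of the 12 samples over the 4 diets (horizontal axis, P:C 0.25 to P:C 0.7), with a bar at the mean of each diet. The muscle list is at 7274 CPM at P:C 0.7, against 17386 CPM at P:C 0.25, with both middle diets between them.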

How the data were processed

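RNA of whole adult females was sequenced on P:C 0.7 and P:C 0.25 food (3 pooled samples each) and on 2 further diets. The authors trimmed and aligned the reads to BDGP6 and deposited raw read counts per transcript, 1 per gene name; the submitters' processing notes name Trim Galore, HISAT2, SAMtools and DESeq2, and whether counting used strand is not given in the sources used here. No column of fold changes or p-values was used, and 0 sample columns were left unmapped.

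The 6 samples were fitted alone with edgeR 4.0.16 in R 4.3.3 (filterByExpr, TMM scaling, quasi-likelihood F-test, diet as the only term). A transcript was called at a Benjamini-Hochberg adjusted p under 0.05 over all tested transcripts and a change over 1.5-fold. The test was tested on simulated data. CPM used TMM-scaled library sizes, and CPM is not corrected for transcript length. Intervals and floors cover counting error only. Replicates were separate pools, and the test set the diet difference against the spread between these pools. Whether the pools of a diet came from separate rearing bottles is not given in the sources used here. Replicate numbers did not pair the samples.

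Genes were described by 35 function lists and 8 marker lists, from which 2 cyclophilins were left out of the P450 list and 48 symbols were not found. The comparison, its members and the lists were chosen with earlier results of these data known. Named were the 10 largest called changes per direction at a mean of at least 5 CPM without overlap of the diets, the 5 highest and the 3 with the smallest p per direction, up to 4 called members per list by size of change, and the highest member of a list with no call. Other transcripts were named after their values were seen: the exceptions and examples of small change, the members of the families in the closing section, and the Tweedle transcripts in the P:C 0.4 flies. Alternatives were DESeq2 1.42.0 with apeglm 1.24.0, other scalings, count filters and fold minimums, a fit of all 12 samples, a replicate block, and leaving out each of the 6 samples. Promoter motifs were not analysed here.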

Additional observations from a re-analysis of the deposited data

How the results depend on the processing

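Of 1902 calls, 177 higher and 1725 lower, edgeR and DESeq2 shared 1488 in the same direction. The total moved to 3800 with no fold minimum and to 4451 when library size alone was used as well, and it ranged from 1216 to 2288 when 1 sample was left out. The higher count moved to 482 under library size alone, 115 by DESeq2, 1551 with no fold minimum and 2471 with no fold minimum and library size alone, and ranged from 94 to 389 with 1 sample left out. The lower count ranged from 1115 to 1899 with 1 sample left out and stayed within 1.5 times of 1725 otherwise. The replicate numbers did not pair the samples (correlations of same-numbered deviations -0.019, 0.213 and 0.053), and with the replicate block 1919 were called, 172 higher and 1747 lower. The remaining scaling, filter and 12-sample settings stayed within 1.5 times of each count.

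Among the named transcripts, 8 values changed sign, all of uncalled transcripts: Cp38 (log2 fold change -0.10, and -0.50 to 0.14 with 1 sample left out) to 0.14, 0.04 and 0.08 without the first P:C 0.25, the first P:C 0.7 or the second P:C 0.7 sample, Rfabg (apolpp; 0.09, and -0.03 to 0.22 with 1 sample left out) to -0.03 and -0.02 without the second P:C 0.25 or the third P:C 0.7 sample, Yp3 (-0.08, and -0.18 to 0.02 with 1 sample left out) to 0.02 under library size alone and 0.02 without the second P:C 0.7 sample, and RpL3 to 0.01 under library size alone. A call was lost in 261 of the pairs of a named transcript and a setting, gained in 5 and kept its side of the threshold in 2648. For the counts of list members, 159 moved by over 1.5 times and 1071 did not. The causes were not tested.

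With 3 samples per diet, transcripts under a few CPM rest on few counts, such as the 42 against 1 of TwdlW, and no count filter sharper than 10 per sample was tried. Overlapping and antisense transcripts cannot be separated without knowing how strand was used. Sample outliers were not examined in groups of 3. The planned search for promoter motifs was not run.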

Other observations

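Several gene families were picked after their values were seen and are described only. Of all tested transcripts, 17.5% were called lower and 1.80% higher. Of 9 tested alkaline phosphatases 6 fell and 0 rose in P:C 0.7 flies (median log2 fold change -1.37): Alp8, phu and Alp2 as above, and CG10592 (Alp10), CG5150 (Alp9) and Aph-4 (Alp4), which fell by 1.55, 1.37 and 1.22. Alp10 had 29.6, 27.8 and 28.3 CPM in P:C 0.7 flies, against 104, 67.4 and 80.1 CPM in P:C 0.25 flies. Of 9 SmydA proteins, arthropod relatives of SET and MYND domain methyltransferases, 8 fell (median -1.40; 5 with at least 10 counts in every sample), from CG14590 (SmydA-5) at -2.32 to msta (SmydA-8) at -1.19.

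Cell surface proteins that match partner neurons were lower as well. Of 31 Dpr and DIP receptors 11 fell and 0 rose (median -0.89), and of 19 Beat and Side proteins 13 fell and 0 rose (-0.94). All 4 of 4 neuroligins fell (-1.21), beside 17.5% of all tested transcripts called lower. dpr10 had 1.26, 0.501 and 0.859 CPM in P:C 0.7 flies, against 4.04, 2.55 and 3.25 CPM in P:C 0.25 flies. Nlg3 (CG34127) had 2.67, 2.65 and 3.53 CPM at P:C 0.7, against 7.49, 5.23 and 8.40 CPM at P:C 0.25. These counts changed when single samples were left out. DESeq2 called 8 Dpr and DIP, 9 Beat and Side, and 4 neuroligin transcripts lower. Without the first or the third P:C 0.25 sample or the first or the second P:C 0.7 sample, the Dpr and DIP count was 6, 4, 7 and 5, the Beat and Side count 4, 5, 7 and 3, and the neuroligin count 2 in each. Over all transcripts the lower calls went from 1725 to 1261, 1247, 1339 and 1115 in the same order. Without the third P:C 0.25 sample 1 Dpr or DIP transcript rose, and with at least 10 counts in every sample 5 fell.

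Parts of the chromosome segregation and repair machinery were higher, by small folds and with calls that changed when single samples were left out. Of 21 kinetochore transcripts 4 rose (Spc25, Nnf1b, cid and borr; median 0.49) and 17 were higher at an adjusted p under 0.05 alone. Over all tested transcripts 1.80% were called higher, and 15.8% were higher at an adjusted p under 0.05 alone. The kinetochore family shares members with the mitosis list, and cid and borr were already counted among the higher calls of that list. The kinetochore count was 2 without the first P:C 0.25 sample, 7 without the second, 1 without the second P:C 0.7 sample, 9 without the third, and 9 under library size alone. Over all transcripts the higher calls went from 177 to 94, 389, 101, 337 and 482 in the same order. Of 14 centriole duplication transcripts 3 rose (ana1, ana2 and ana3; median 0.45), with 0 by DESeq2 and 0 without the first or the third P:C 0.25 sample or the first or the second P:C 0.7 sample, but 6 without the third P:C 0.7 sample or under library size alone. Of 15 of recombination and double-strand break repair 4 rose (spn-B, Brca2, mms4 and Rad51D; median 0.36), 2 by DESeq2, 1 without the first P:C 0.25 sample, 2 without the first P:C 0.7 sample and 0 without the second. Spc25, which overlaps another transcript, had 30.0, 34.5 and 25.4 CPM in P:C 0.7 flies, against 13.5, 19.9 and 18.8 CPM in P:C 0.25 flies. cid, the centromeric histone, measured 34.9, 39.8 and 29.8 CPM at P:C 0.7, against 16.9, 26.7 and 24.2 CPM at P:C 0.25, and lost its call by DESeq2 (0.55) and in 4 of the 6 fits with 1 sample left out (0.46 to 0.68). Nnf1b lost its call without the third P:C 0.25 or the second P:C 0.7 sample, and borr without the first P:C 0.25 or the second P:C 0.7 sample.

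Vajk cuticle proteins split: CG16886 (Vajk1) rose by 2.86 on the log2 scale, while CG16885 (Vajk2) and CG16884 (Vajk3) fell by 2.46 and 2.51, and all 3 overlap another transcript. Of the 4 Vajk transcripts 2 rose without the first P:C 0.25 sample and 0 with at least 10 counts in every sample. CG15022 had 2.83, 2.15 and 3.72 CPM at P:C 0.7 and 0 counts at P:C 0.25, at least 7.78-fold higher. Among the transcripts of high level, CG32816 had 4385, 3724 and 5711 CPM in P:C 0.7 flies, against 12007, 8517 and 10121 CPM in P:C 0.25 flies, but it overlaps other transcripts on chromosome X. Over the 55 male-specific transcripts, the third P:C 0.55 sample held 230 counts, beside 13 to 49 in each of the other 11 samples.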
